A study of Homo sapiens with 10 samples.

Results

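The SLC25 genes encode the mitochondrial carriers, and they were taken as every gene on the array whose symbol in the platform annotation starts with SLC25A, pseudogenes and antisense genes left out. The rule found 45 genes among 19775 named by probe sets with exactly 1 symbol, and each gene was read from the probe set with the highest mean log2 signal over the 10 arrays. Of the 45, 39 passed the filter on low signal and were tested.

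Signals came from LoVo, an established human colon cancer cell line, on Affymetrix HG-U133 Plus 2.0 arrays. There were 4 arrays of serum-free cultures given 10 μM ADMA (ADMA), 3 of serum-starved cultures without ADMA (SS) and 3 of control cultures in medium with 10% fetal bovine serum (C), all harvested at 96 h. Asymmetric dimethylarginine (ADMA) is an arginine derivative that blocks nitric oxide synthesis. All cultures came from 1 line and the labels call them biological replicates, so the p-values speak of the spread between cultures of that line. The comparisons ask what serum starvation does to each gene (SS minus C), what ADMA does in starved cells (ADMA minus SS) and how far ADMA-treated cells stand from fed cells (ADMA minus C). The first 2 share the SS arrays, the first and the third share the C arrays, and the last 2 share the ADMA arrays.

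The inner mitochondrial membrane is closed to most ions and metabolites, and carriers of this family move nucleotides, phosphate, carboxylic acids, amino acids, cofactors and iron across it. Most exchange 1 solute for another, and all share a fold built from 3 repeats of a pair of membrane helices. They are encoded in the nucleus, made in the cytosol and inserted with the help of the small TIMM chaperones. In proliferating colon epithelium they link glycolysis, amino acid breakdown and lipid synthesis to the respiratory chain.

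The whole table showed several differences between the groups beside those of single genes. The trimmed mean signal was the same on every array, at 500.06 to 500.07, while the median signal was 91.9 to 98.1 on ADMA arrays, 87.5 to 90.7 on SS arrays and 60.7 to 73.1 on C arrays. The background level, the 95th percentile of 27 bacterial control probe sets, lay between 35.0 and 70.2. Signals of 28S ribosomal RNA averaged 671 to 935 on ADMA arrays, 1068 to 1653 on SS arrays and 345 to 429 on C arrays. The ACTB signal at the 3′ end over that at the 5′ end was 1.02 to 1.05 in ADMA, 1.13 to 1.23 in SS and 1.01 to 1.08 in C. All 10 colon epithelium markers stood over background on all 10 arrays, and their summed signal was 136250 to 155330 in ADMA, 107570 to 121910 in SS and 87935 to 88565 in C. Of other cell types, 1 of 8 fibroblast, 1 of 6 endothelial, 2 of 6 leukocyte (LYZ and ITGAM), 0 of 6 muscle and 0 of 5 adipocyte markers did so, with a leukocyte sum of 1568 to 2247 in ADMA, 4172 to 4840 in SS and 598 to 906 in C, and an adipocyte sum of 64.7 to 140 in ADMA, 90.9 to 127 in SS and 36.5 to 41.3 in C. The part of these differences in the results below was not tested.

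More SLC25 genes fell than rose with serum starvation. In SS minus C, 13 of the 39 tested genes fell (33.3%) and 6 rose (15.4%), and 20 were not called. Among all 12342 genes tested, 27.3% fell and 30.3% rose. A call needed an adjusted p under 0.01 in limma and a fold of at least 1.2. The median log2 difference was -0.070 over the 39 genes and 0.066 over all genes, so neither list was far from 0 at its middle. Deeper falls belonged to the dicarboxylate carrier SLC25A10, the glutathione carrier SLC25A39 and the oxoglutarate carrier SLC25A11, and larger rises to SLC25A27, a relative of the uncoupling proteins, SLC25A45 and SLC25A16. Since each array held the RNA of a whole culture, fewer cells of a kind and less RNA per cell cannot be told apart.

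ADMA moved SLC25 genes in starved cells in both directions. In ADMA minus SS 6 of 39 rose (15.4%), 4 fell (10.3%) and 29 were not called, and over all genes 15.7% rose and 13.8% fell. The shares of the SLC25 genes were thus near the background. Their median difference was 0.026 against 0.025 over all genes. Set against fed cells, 13 of 39 were lower in ADMA-treated cells (33.3%) and 8 were higher (20.5%), where 23.2% of all genes fell and 26.6% rose in ADMA minus C. The medians in that comparison were -0.14 and 0.067.

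The split between rises and falls depended on how the arrays were scaled. Centring each array on its median lowered the median of all genes by 0.39 in SS minus C, by 0.12 in ADMA minus SS and by 0.51 in ADMA minus C on the log2 scale. With that centring the SLC25 genes split into 5 rises and 19 falls in SS minus C, 3 rises and 5 falls in ADMA minus SS, and 4 rises and 21 falls in ADMA minus C. The whole table moved the same way: with centred arrays 16.3% of all genes rose and 42% fell in SS minus C, 7.31% rose and 17% fell in ADMA minus SS, and 9.8% rose and 49.4% fell in ADMA minus C. Set beside these, the SLC25 genes had 12.8% rises and 48.7% falls, 7.69% and 12.8%, and 10.3% and 53.8%, all near the background. Quantile normalization lowered the median of all genes by 0.11 in SS minus C, 0.023 in ADMA minus SS and 0.13 in ADMA minus C, and gave 6 rises and 14 falls, 5 and 5, and 6 and 14 in these comparisons. Of all genes 27.2% rose and 28.6% fell in SS minus C under it, 15.2% and 14% in ADMA minus SS, and 23.2% and 24.7% in ADMA minus C. The 13 genes that fell in SS minus C fell under both other scalings, and of the 6 that rose, the citrate carrier SLC25A1 alone lost its call, when arrays were centred.

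**Figure D1:**
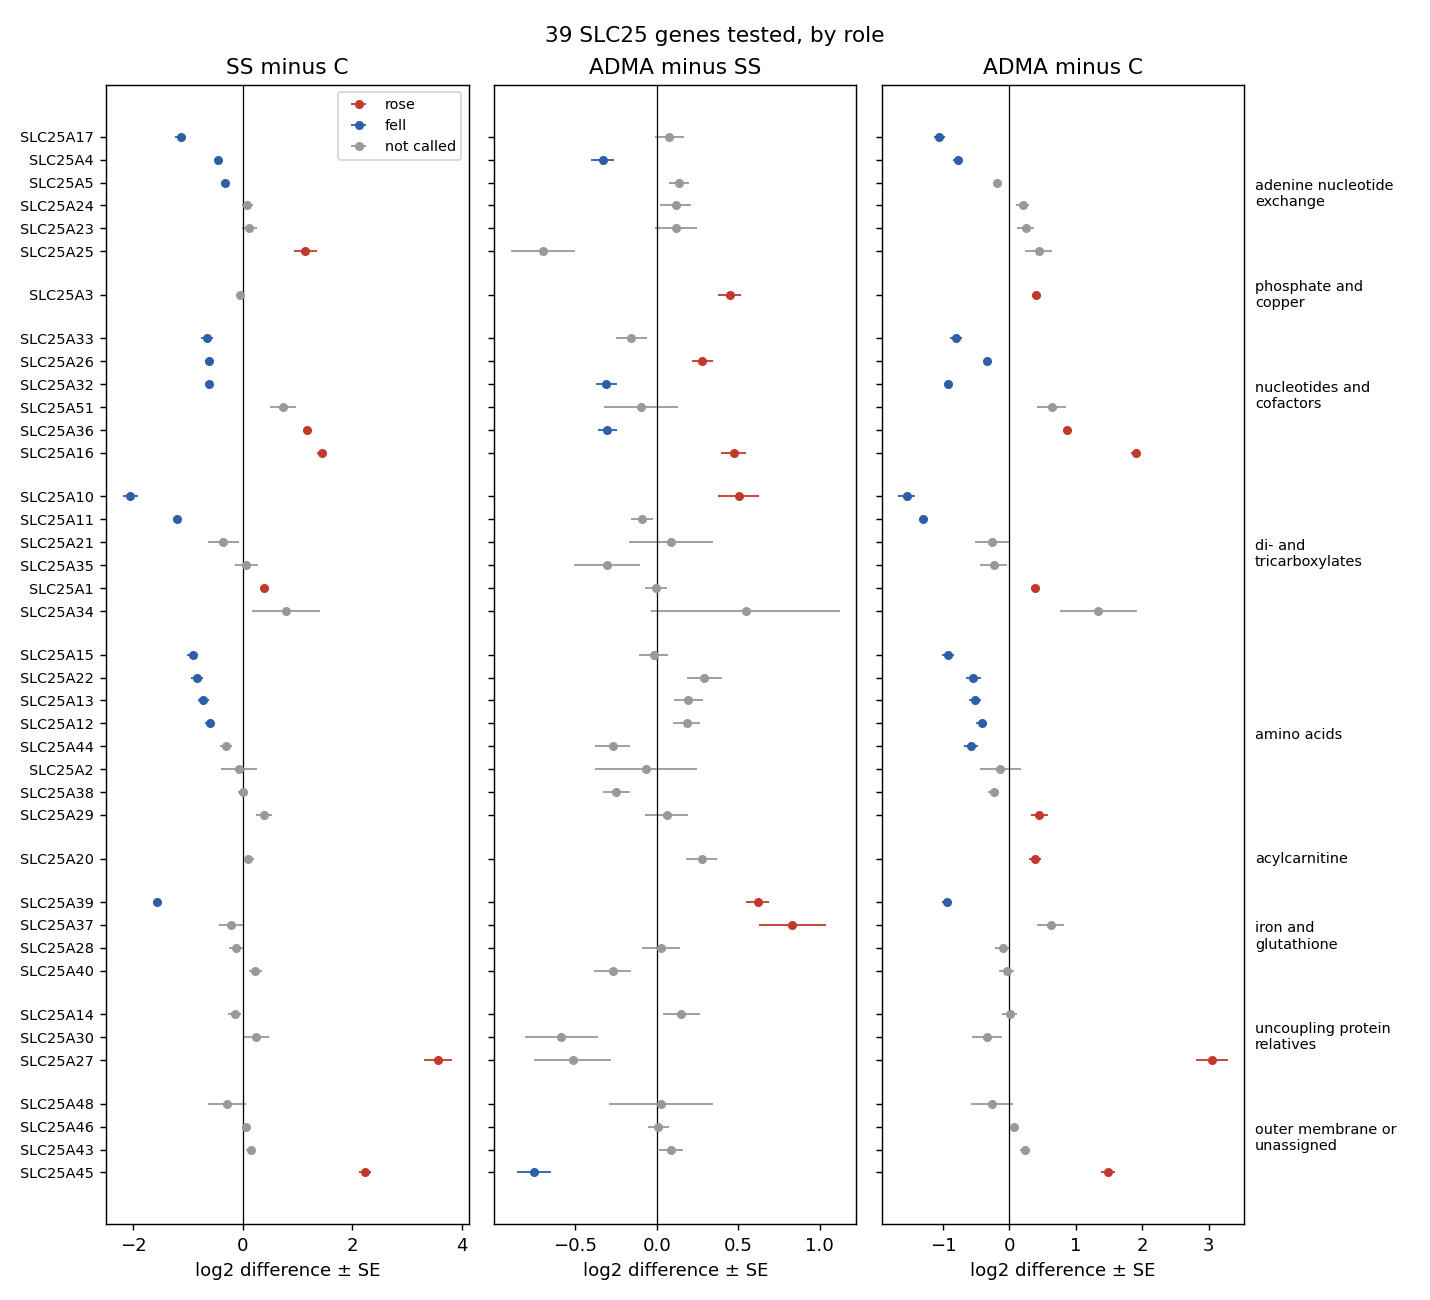
The log2 difference of each of the 39 tested SLC25 genes with its standard error in SS minus C, ADMA minus SS and ADMA minus C, grouped by role, with the x axes on different scales. In SS minus C 6 genes rose and 13 fell, in ADMA minus SS 6 rose and 4 fell, and in ADMA minus C 8 rose and 13 fell on the arrays as deposited; centred arrays gave 5 and 19, 3 and 5, and 4 and 21, where of all genes 16.3% rose and 42% fell, 7.31% and 17%, and 9.8% and 49.4%.

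Promoters of 4 genes with large changes are given here for context, as RefSeq windows on GRCh38.p14 of 250 bases that end at the base before the transcription start, written 5′ to 3′ on the strand of the gene. They belong to 2 genes that fell and 2 that rose in SS minus C, each with 1 window. Capitals mark matches on either strand to 4 motifs: CACGTG, the E-box bound by MYC and its partners; TGATGNAA, the amino acid response element bound by ATF4; GCGC and GCGC again with any 2 bases between them, the core bound by NRF1; and CCAAT, the box bound by NF-Y. The windows lie at chr17:44324824-44325073 (minus strand) for SLC25A39, chr17:4940047-4940296 (minus strand) for SLC25A11, chr6:46652725-46652974 (plus strand) for SLC25A27 and chr3:140941586-140941835 (plus strand) for SLC25A36.
SLC25A39: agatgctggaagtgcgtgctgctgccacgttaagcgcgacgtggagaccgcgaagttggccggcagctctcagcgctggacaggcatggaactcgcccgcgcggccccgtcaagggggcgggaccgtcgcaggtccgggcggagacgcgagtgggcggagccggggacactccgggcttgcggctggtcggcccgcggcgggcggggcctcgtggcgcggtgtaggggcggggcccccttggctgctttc
SLC25A11: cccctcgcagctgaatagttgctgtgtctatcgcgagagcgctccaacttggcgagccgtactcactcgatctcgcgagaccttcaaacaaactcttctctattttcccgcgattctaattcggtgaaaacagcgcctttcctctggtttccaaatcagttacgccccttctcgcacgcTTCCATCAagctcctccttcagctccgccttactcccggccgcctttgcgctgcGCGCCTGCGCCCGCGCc
SLC25A27: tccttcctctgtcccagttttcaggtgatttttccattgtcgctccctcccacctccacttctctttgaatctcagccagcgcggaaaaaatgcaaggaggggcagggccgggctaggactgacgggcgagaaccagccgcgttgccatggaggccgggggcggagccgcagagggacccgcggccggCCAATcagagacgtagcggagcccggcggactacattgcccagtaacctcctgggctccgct
SLC25A36: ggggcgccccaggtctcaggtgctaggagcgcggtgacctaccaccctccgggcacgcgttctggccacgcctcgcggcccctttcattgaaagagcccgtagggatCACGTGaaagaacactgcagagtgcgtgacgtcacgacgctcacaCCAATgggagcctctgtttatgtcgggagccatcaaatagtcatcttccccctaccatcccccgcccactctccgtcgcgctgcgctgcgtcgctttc
SLC25A11 has 2 overlapping NRF1 cores, starting 17 and 11 bases before the start, and an amino acid response element 71 bases before it. SLC25A27 has a CCAAT box 62 bases upstream, SLC25A36 has one 98 bases upstream with an E-box at 143, and SLC25A39 holds none of these letters in this window.

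Windows of 37 of the 45 genes were used. SLC25A2, SLC25A16, SLC25A30, SLC25A32, SLC25A35, SLC25A37 and SLC25A41 had no entry. The NRF1 core was in 7.16% of all 35116 windows and in 5 of the 37 genes, among them 3 of the 11 with a window that fell in SS minus C (SLC25A4, SLC25A11 and SLC25A12) and 0 of the 5 that rose. The E-box was in 6.34% of all windows and in 8 of 37 genes, with 3 of 11 among those that fell and 1 of 5 among those that rose. CCAAT was in 32% of all windows and in 19 of 37 genes, with 5 of 11 among those that fell and 5 of 5 among those that rose. The amino acid response element was in 3.14% of all windows and in SLC25A11 alone of the 37. A gene was counted if any of its windows held the motif, whereas the shares of all windows are per single window. SLC25A22 had 4 windows, SLC25A25 and SLC25A26 had 3, and SLC25A24, SLC25A45 and SLC25A48 had 2. The counts of genes are thus not on the same footing as the shares and can lie above them for that reason. These are matches of letters, not measured binding.

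Of the carriers that exchange adenine nucleotides, 6 were tested, and 3 fell and 1 rose in SS minus C, where 27.3% of all genes fell and 30.3% rose. SLC25A5 is the ADP/ATP carrier of proliferating cells and brings ADP into the matrix for the ATP synthase. Its signal was 16827, 16718, 16646 and 18975 on ADMA arrays, 15456, 14844 and 16806 on SS arrays and 20137, 18837 and 19864 on C arrays, in the order of the replicate numbers. Every SS array was below every C array, and ADMA overlapped with both other groups. SLC25A5 fell 1.25-fold in SS minus C (log2 difference -0.32, SE 0.065, limma adjusted p = 0.000463). It was not called in ADMA minus SS (0.14, adjusted p = 0.0797) nor in ADMA minus C (-0.18, adjusted p = 0.0167). With quantile normalization it was called as a fall in ADMA minus C (-0.35, limma adjusted p = 4.55e-07).

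SLC25A4, the ADP/ATP carrier best known from heart and skeletal muscle, was the member of this group that fell in all 3 comparisons. Its signals ran from 1505 to 1709 in ADMA, 1927 to 2120 in SS and 2620 to 2844 in C, and the 3 groups did not overlap. The fall was 1.36-fold in SS minus C (log2 difference -0.44, limma adjusted p = 7.22e-05), 1.26-fold in ADMA minus SS (-0.33, adjusted p = 0.00126) and 1.71-fold in ADMA minus C (-0.78, adjusted p = 1.77e-07). Averaged over both of its probe sets, of which 214821_at was too dim to be tested, the differences were 0.14, -0.47 and -0.33, and none was called. SLC25A17, a carrier of coenzyme A, FAD and AMP in the peroxisome membrane, fell 2.19-fold in SS minus C (-1.13, adjusted p = 6.09e-08) and 2.08-fold in ADMA minus C (-1.06, adjusted p = 1.07e-07). Its second probe set gave -0.20 in SS minus C and was not called (adjusted p = 0.301 over probe sets).

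SLC25A25, a calcium-regulated carrier that exchanges ATP-Mg for phosphate, was the riser of this group. It read 341, 323, 388 and 210 on ADMA arrays, 535, 454 and 513 on SS arrays and 211, 191 and 291 on C arrays. All SS arrays were above all others, while ADMA replicate 4 lay among the C arrays. SLC25A25 rose 2.20-fold in SS minus C (log2 difference 1.14, SE 0.21, limma adjusted p = 0.000224). In ADMA minus SS it was -0.70 with an adjusted p of 0.0102, just past the threshold and not called, and it was called as a fall with quantile normalization (-0.76, adjusted p = 0.00607) and with centred arrays (-0.81, adjusted p = 0.00163). Its relatives SLC25A23 and SLC25A24 were not called in any comparison, with differences between 0.082 and 0.24.

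**Figure D2:**
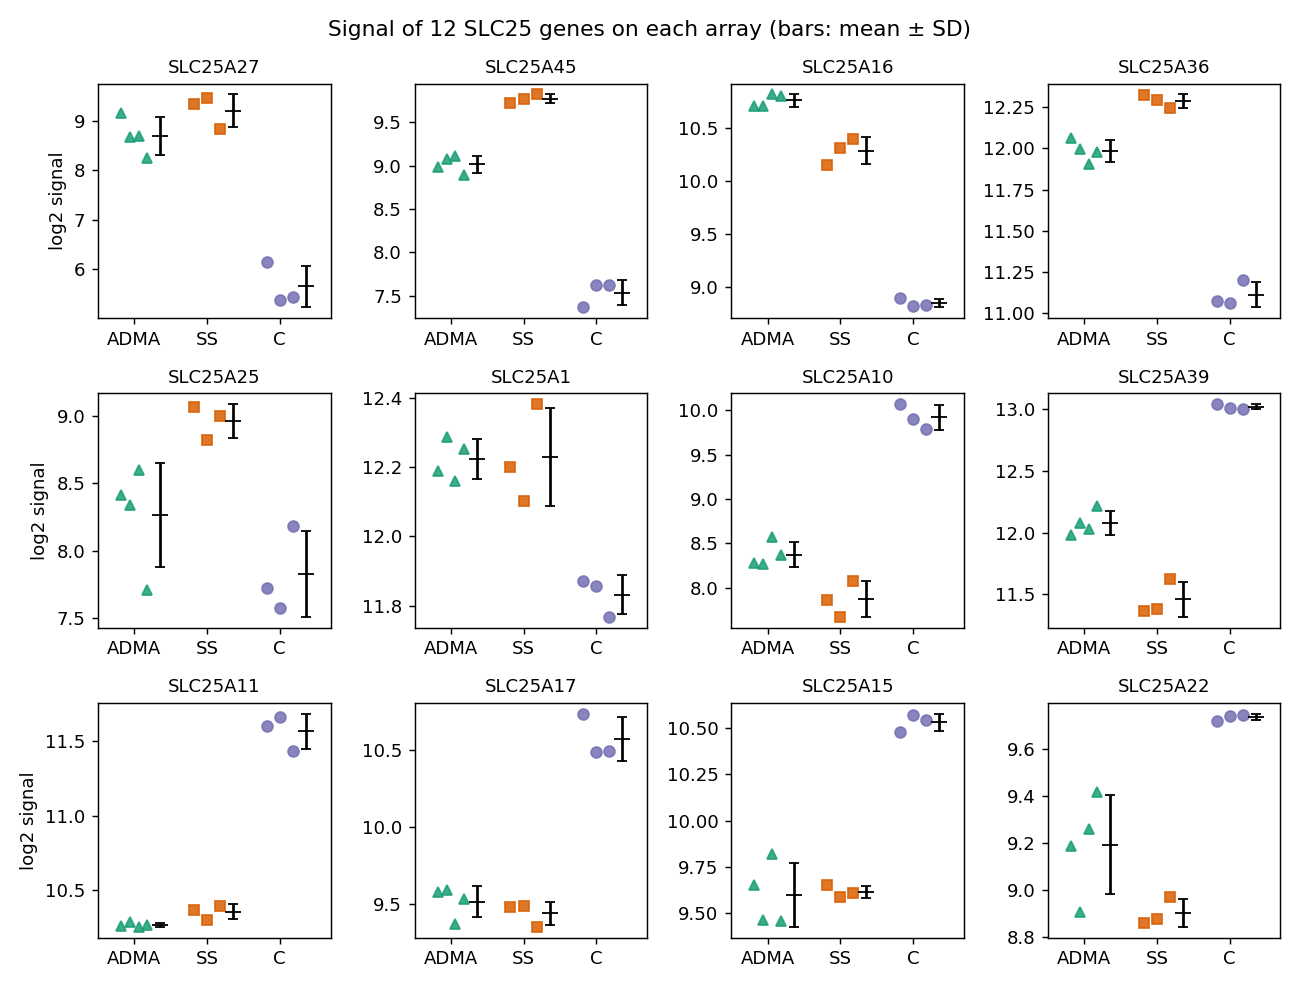
The log2 signal of 12 SLC25 genes on each ADMA, SS and C array (points, left to right), with the mean and SD of each group beside them and a y axis of its own for each gene. In SLC25A10 and SLC25A39 the ADMA arrays lie between the SS and the C arrays without overlap, and in SLC25A16 they lie above both on the probe set used. In SLC25A11 they lie below both on the probe set used, with a difference from SS of -0.090 that was not called.

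The phosphate and copper carrier SLC25A3 supplies phosphate to the ATP synthase and copper to cytochrome oxidase. Its signal was 26567, 27581, 26210 and 31465 on ADMA arrays, 19632, 19163 and 22769 on SS arrays and 21183, 20677 and 21329 on C arrays. The 4 ADMA arrays were above all SS and C arrays, and SS and C overlapped. SLC25A3 rose 1.36-fold in ADMA minus SS (log2 difference 0.45, SE 0.071, limma adjusted p = 0.00017) and 1.32-fold in ADMA minus C (0.40, adjusted p = 0.000169), and it was not called in SS minus C (-0.042, adjusted p = 0.645). With quantile normalization it stayed below the fold minimum in ADMA minus SS (0.14). With centred arrays ADMA minus C turned to -0.10 and was not called, and SS minus C was called as a fall (-0.43, adjusted p = 0.000306). The SLC25A3 calls in ADMA minus SS and ADMA minus C were also lost without probe sets ending in _x_at or _s_at and with SAM, a permutation-based test. A second probe set, 228971_at, was called in no comparison, with 0.38 in ADMA minus SS (limma adjusted p = 0.0543 over probe sets) and 0.20 in ADMA minus C.

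Carriers of nucleotides and cofactors moved in both directions, with 2 rises and 3 falls among 6 tested in SS minus C. Over all genes 30.3% rose and 27.3% fell in that comparison. SLC25A16, which has been tied to coenzyme A in mitochondria, read 1672, 1669, 1797 and 1780 on ADMA arrays, 1136, 1265 and 1347 on SS arrays and 475, 452 and 455 on C arrays. The 3 groups were apart, with ADMA at the top. SLC25A16 rose 2.71-fold in SS minus C (log2 difference 1.44, SE 0.081, limma adjusted p = 9.45e-10), 1.39-fold in ADMA minus SS (0.47, adjusted p = 0.000174) and 3.75-fold in ADMA minus C (1.91, adjusted p = 5.87e-11). The ADMA minus SS call was lost with centred arrays (0.36, adjusted p = 0.0136). Of its 4 tested probe sets 3 rose in SS minus C and 1 in ADMA minus SS.

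SLC25A36, a carrier of pyrimidine nucleotides, went the other way with ADMA. It read 4285, 4079, 3838 and 4037 on ADMA arrays, 5136, 5016 and 4855 on SS arrays and 2154, 2140 and 2353 on C arrays. ADMA arrays lay between the other groups and closer to SS, with no overlap. SLC25A36 rose 2.26-fold in SS minus C (log2 difference 1.18, SE 0.062, limma adjusted p = 4.87e-10), fell 1.23-fold in ADMA minus SS (-0.30, adjusted p = 0.000735) and rose 1.83-fold in ADMA minus C (0.87, adjusted p = 1.01e-08). The ADMA minus SS call was lost when its probe sets were averaged and with SAM.

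The other pyrimidine nucleotide carrier, SLC25A33, changed in the opposite direction and fell 1.57-fold in SS minus C (log2 difference -0.65, limma adjusted p = 4.45e-05). SLC25A26 carries S-adenosylmethionine, the cell's methyl donor, and SLC25A32 carries folate and FAD. Both fell 1.53-fold in SS minus C, with differences of -0.62 and -0.61. They parted in ADMA minus SS: SLC25A26 rose 1.21-fold (0.28, adjusted p = 0.00271) and SLC25A32 fell 1.24-fold (-0.31, adjusted p = 0.00181). The SLC25A26 call was lost without SS replicate 2 and with centred arrays (0.16), and the SLC25A32 call was lost without SS replicate 1. The NAD carrier SLC25A51 had a difference of 0.73 in SS minus C and was not called (adjusted p = 0.0146).

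Carriers of di- and tricarboxylates gave the deepest fall among the SLC25 genes tested. SLC25A10 exchanges malate and succinate for phosphate. It read 311, 309, 380 and 332 on ADMA arrays, 233, 204 and 270 on SS arrays and 1076, 957 and 888 on C arrays. The 3 groups did not overlap, and the ADMA arrays stood much nearer to SS than to C. SLC25A10 fell 4.14-fold in SS minus C (log2 difference -2.05, SE 0.13, limma adjusted p = 4.66e-09), rose 1.42-fold in ADMA minus SS (0.50, SE 0.13, adjusted p = 0.00493) and fell 2.92-fold in ADMA minus C (-1.55, adjusted p = 8.02e-08). The fall in SS minus C held in all 19 alternatives, between -2.44 and -1.95. The rise with ADMA was lost in 8 of 20, among them those without SS replicate 1, SS replicate 2, ADMA replicate 3 or ADMA replicate 4, while the difference stayed between 0.39 and 0.61.

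SLC25A11, the oxoglutarate carrier of the malate-aspartate shuttle, fell 2.31-fold in SS minus C (log2 difference -1.21, SE 0.070, limma adjusted p = 1.38e-09) and 2.45-fold in ADMA minus C (-1.30, adjusted p = 6.6e-10). Its signal was 1224 to 1249 in ADMA, 1265 to 1350 in SS and 2766 to 3228 in C. ADMA and SS differed little (-0.090, adjusted p = 0.297). A second probe set of the gene fell with -1.53 in SS minus C and rose with 0.35 in ADMA minus SS.

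SLC25A1 exports citrate, the carbon source of fatty acid and cholesterol synthesis in the cytosol. Its signal was 4670, 4997, 4576 and 4881 on ADMA arrays, 4701, 4399 and 5336 on SS arrays and 3747, 3708 and 3485 on C arrays. Both serum-free groups were above C and overlapped with each other. SLC25A1 rose 1.32-fold in SS minus C (log2 difference 0.40, SE 0.071, limma adjusted p = 0.000166) and 1.31-fold in ADMA minus C (0.39, adjusted p = 0.000126), but with centred arrays the differences were 0.0067 and -0.12 and neither was called. SLC25A21, which carries oxoadipate and oxoglutarate, SLC25A34 and SLC25A35 were not called in any comparison.

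Amino acid carriers included no riser in SS minus C on the probe sets used, where 4 of 8 fell and 4 were not called. Over all genes 27.3% fell and 30.3% rose in it, and 42% fell with centred arrays. A further probe set of SLC25A29, 232280_at, rose with 2.49 and was over background on 1 of 3 C arrays. SLC25A15 exchanges ornithine for citrulline in the urea cycle. It read 806, 705, 904 and 705 on ADMA arrays, 805, 770 and 783 on SS arrays and 1430, 1518 and 1493 on C arrays. Both serum-free groups were well below C and overlapped with each other. SLC25A15 fell 1.88-fold in SS minus C (log2 difference -0.91, SE 0.097, limma adjusted p = 7.89e-07) and 1.91-fold in ADMA minus C (-0.93, adjusted p = 4.73e-07). In ADMA minus SS it was -0.019 (adjusted p = 0.891), whereas its second probe set, with a deeper fall of -1.81 in SS minus C, rose with 0.71 in ADMA minus SS (adjusted p = 0.00217 over probe sets).

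The glutamate carrier SLC25A22 fell 1.78-fold in SS minus C (log2 difference -0.84, limma adjusted p = 1.38e-05). SLC25A13 and SLC25A12, the aspartate and glutamate exchangers of the malate-aspartate shuttle, fell 1.64-fold (-0.72, adjusted p = 1.07e-05) and 1.52-fold (-0.60, adjusted p = 2.05e-05). SLC25A11, SLC25A12 and SLC25A13, the carriers of that shuttle, thus all fell in SS minus C, where 27.3% of all genes fell (42% with centred arrays). The SLC25A12 fall was lost with SAM. Probe set 229081_at of SLC25A13 was not called in it (-0.40, limma adjusted p = 0.0645 over probe sets). SLC25A22, SLC25A13 and SLC25A12 had differences of 0.29, 0.19 and 0.18 in ADMA minus SS, none of them called on the probe set used. The second probe set of SLC25A12, 203339_at, rose in ADMA minus SS (0.50, limma adjusted p = 0.00501 over probe sets). Further probe sets of SLC25A13 had 0.45 and 0.53 there and were not called. In ADMA minus C all 3 genes fell, with -0.54, -0.52 and -0.42. The SLC25A13 call in ADMA minus C was lost with averaged probe sets (-0.21) and with SAM, and that of SLC25A12 without probe sets ending in _x_at or _s_at (-0.36) and with SAM. SLC25A44, a carrier of branched-chain amino acids, was called on the arrays as deposited in ADMA minus C alone, where it fell 1.49-fold (-0.57, adjusted p = 0.000234). That call was lost with averaged probe sets (-0.17) and with SAM, and its second probe set, 212683_at, had a difference of 0.23 and was not called. In SS minus C SLC25A44 fell with quantile normalization (-0.38, limma adjusted p = 0.00737) and with centred arrays (-0.69, adjusted p = 0.000167).

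SLC25A38 brings glycine into mitochondria for heme synthesis. Its signal was 1939, 1741, 1704 and 1624 on ADMA arrays, 2248, 1998 and 1993 on SS arrays and 2218, 2165 and 1833 on C arrays. The ADMA arrays were below the SS arrays, and C overlapped with both. It was not called in SS minus C (0.0084), ADMA minus SS (-0.25, limma adjusted p = 0.0255) or ADMA minus C (-0.24, adjusted p = 0.0211), and with centred arrays it fell in SS minus C (-0.38, adjusted p = 0.00684).

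SLC25A29, a carrier of basic amino acids such as arginine and lysine, had signals of 623 to 793 in ADMA, 630 to 730 in SS and 415 to 612 in C. It rose 1.37-fold in ADMA minus C (log2 difference 0.45, limma adjusted p = 0.00842), and this call was kept in 8 of 20 alternatives only. It was lost without C replicate 2 or 3 and without ADMA replicate 1, 2 or 3, and with centred arrays the difference was -0.054. SLC25A2, the second ornithine carrier, was not called in any comparison.

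The acylcarnitine carrier SLC25A20 brings fatty acids into the matrix for oxidation. It read 763, 751, 856 and 794 on ADMA arrays, 571, 719 and 677 on SS arrays and 610, 592 and 620 on C arrays. The ADMA arrays were above all others and SS overlapped with C. SLC25A20 rose 1.30-fold in ADMA minus C (log2 difference 0.38, limma adjusted p = 0.00253) and was not called in ADMA minus SS (0.28, adjusted p = 0.0269) or SS minus C (0.10, adjusted p = 0.376). The call in ADMA minus C was lost without C replicate 2 and with quantile normalization, and centred arrays turned the difference to -0.13.

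Among the carriers of iron and glutathione, SLC25A39 stood out for a change in both directions. SLC25A39 brings glutathione, the main thiol antioxidant, into mitochondria. It read 4048, 4316, 4182 and 4745 on ADMA arrays, 2638, 2670 and 3155 on SS arrays and 8441, 8278 and 8207 on C arrays. The 3 groups were apart, with ADMA between SS and C. SLC25A39 fell 2.96-fold in SS minus C (log2 difference -1.56, SE 0.076, limma adjusted p = 2.1e-10), rose 1.53-fold in ADMA minus SS (0.62, SE 0.071, adjusted p = 9.54e-06) and fell 1.93-fold in ADMA minus C (-0.95, adjusted p = 3.62e-08). The related carrier SLC25A40 was not called in any comparison on its main probe set, with 0.23, -0.27 and -0.038.

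SLC25A37 and SLC25A28 are the mitoferrins, which import iron for heme and iron-sulfur clusters. SLC25A37 had signals of 455 to 689 in ADMA, 306 to 346 in SS and 254 to 549 in C. The ADMA arrays were above the SS arrays, and C overlapped with both. SLC25A37 rose 1.78-fold in ADMA minus SS (log2 difference 0.83, SE 0.21, limma adjusted p = 0.00466), and the call was lost without any 1 of the 3 SS arrays and without ADMA replicate 3 or 4, while the difference stayed between 0.72 and 0.94. In SS minus C it was -0.21 and not called (adjusted p = 0.413). SLC25A28 was not called in any comparison, with differences between -0.13 and 0.025, while with centred arrays it fell in SS minus C (-0.52, adjusted p = 0.0059).

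Further probe sets of SLC25A37 gave different answers. When each of 69 SLC25 probe sets that passed the filter was tested in its own right, 2 of the 5 probe sets of SLC25A37 fell in SS minus C, with -1.45 (222529_at, limma adjusted p = 3.21e-05) and -1.11 (221920_s_at, adjusted p = 0.00013). The other 3 were not called and ran from -0.65 to 0.086. Over all 23113 probe sets tested, 24% fell and 29.4% rose in SS minus C. All 5 had a positive difference in ADMA minus SS, from 0.41 to 0.83, of which 1 was called, where 13% of all probe sets rose and 11.2% fell. In ADMA minus C 1 of the 5 rose (218136_s_at, 0.68) and 1 fell (222529_at, -1.04). The shares over all probe sets were not counted for that comparison, and over all genes 26.6% rose and 23.2% fell in it.

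**Figure D3:**
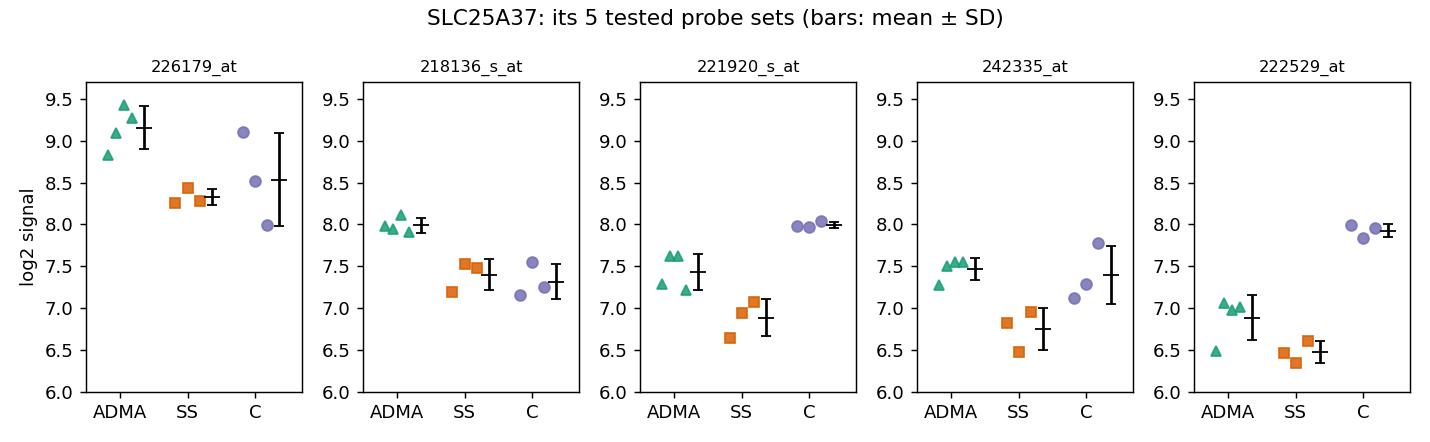
The log2 signal of the 5 tested probe sets of SLC25A37 on each ADMA, SS and C array (points), with the mean and SD of each group beside them. In 221920_s_at, 222529_at and 242335_at all C arrays lie above all SS arrays, the last with a difference of -0.65 that was not called, while in 226179_at and 218136_s_at C and SS overlap.

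Of 20 SLC25 genes with more than 1 tested probe set, none had probe sets called in opposite directions in SS minus C or in ADMA minus SS. Probe sets of 1 gene still differed in size and in call. In SLC25A14 the second probe set, 211855_s_at, fell in SS minus C (-0.95, limma adjusted p = 2.04e-05) and rose in ADMA minus SS (0.70, adjusted p = 0.000573), while the probe set used for the gene was called in neither. Likewise 1 of 3 probe sets of SLC25A29 rose in SS minus C with 2.49 (232280_at). That probe set was over background on 1 of 3 C arrays.

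Relatives of the uncoupling proteins gave the largest rise of any SLC25 gene tested. SLC25A27, also called UCP4 and best known from brain, read 577, 408, 417 and 303 on ADMA arrays, 647, 706 and 459 on SS arrays and 70.4, 41.3 and 43.5 on C arrays. All serum-free arrays were far above the C arrays, and ADMA and SS overlapped. The C signals stood close to the background levels of their arrays, which were 70.2, 35.0 and 43.0. SLC25A27 rose 11.8-fold in SS minus C (log2 difference 3.56, SE 0.25, limma adjusted p = 1.16e-08) and 8.27-fold in ADMA minus C (3.05, adjusted p = 5.32e-08). In ADMA minus SS it was -0.52 and not called (adjusted p = 0.0958).

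SLC25A14, also called UCP5, read 715, 744, 665 and 706 on ADMA arrays, 723, 609 and 587 on SS arrays and 843, 683 and 606 on C arrays. The 3 groups overlapped. It was not called in SS minus C (log2 difference -0.14, limma adjusted p = 0.308), ADMA minus SS (0.15) or ADMA minus C (0.0056). With centred arrays it fell in SS minus C (-0.53, adjusted p = 0.00122) and in ADMA minus C (-0.50). SLC25A30, the third relative, was not called either, with -0.59 in ADMA minus SS (adjusted p = 0.0458).

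The last group holds the outer membrane member SLC25A46 and carriers that had no assigned substrate in the list used here. SLC25A45, since linked to the uptake of methylated amino acids, read 506, 541, 552 and 475 on ADMA arrays, 843, 872 and 905 on SS arrays and 165, 197 and 197 on C arrays. The 3 groups were apart, with ADMA between SS and C. SLC25A45 rose 4.70-fold in SS minus C (log2 difference 2.23, SE 0.11, limma adjusted p = 3.06e-10), fell 1.69-fold in ADMA minus SS (-0.75, SE 0.11, adjusted p = 5.43e-05) and rose 2.79-fold in ADMA minus C (1.48, adjusted p = 2.08e-08). The second probe set, 1563498_s_at, was called in the same directions and was over background on 2 of 3 C arrays.

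SLC25A46, which takes part in mitochondrial fission, read 4483, 4374, 4088 and 4440 on ADMA arrays, 4528, 4141 and 4284 on SS arrays and 4241, 3801 and 4444 on C arrays. The groups overlapped and no comparison was called, with log2 differences between 0.0096 and 0.065, while with centred arrays it fell in SS minus C (-0.33, limma adjusted p = 0.00303). Its second probe set, 226831_at, rose in SS minus C (0.40, adjusted p = 5.4e-05 over probe sets) and in ADMA minus C (0.34, adjusted p = 0.000141). SLC25A43 and SLC25A48 were not called in any comparison.

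**Figure D4:**
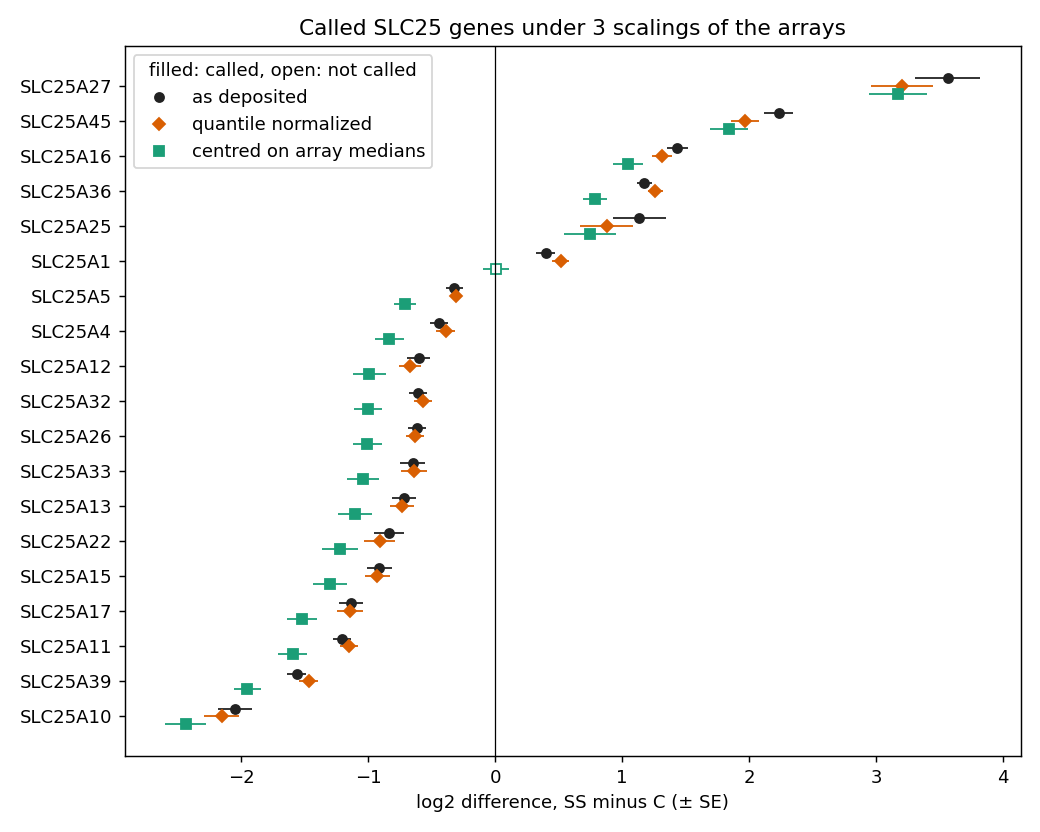
The log2 difference in SS minus C, with its standard error, of the 19 SLC25 genes called on the arrays as deposited, with arrays as deposited, quantile normalized and centred on their medians. Filled symbols mark calls, and the sole open symbol is SLC25A1 with centred arrays, at 0.0067.

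Of the 6 genes left untested, each read from the probe set used for it, SLC25A18, SLC25A31 and SLC25A41 were over background on none of the 10 arrays. SLC25A47 was over it on 2 of 4 ADMA arrays and on none of the others, SLC25A53 on 2 of 3 C arrays and on none of the others (its other probe set, 1561660_at, also on 1 of 3 SS arrays), and SLC25A42, a coenzyme A carrier, on 4 of 4 ADMA, 2 of 3 SS and 3 of 3 C arrays. Among the tested genes, SLC25A34 and SLC25A48 were not over background on every array. SLC25A31 is the ADP/ATP carrier of the testis and SLC25A47 is known from liver.

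Genes that work with the carriers were counted in 5 further lists. Their counts stand beside the shares of all genes, which in SS minus C were 30.3% rises and 27.3% falls as deposited and 16.3% and 42% with centred arrays, in ADMA minus SS 15.7% and 13.8% as deposited and 7.31% and 17% centred, and in ADMA minus C 26.6% and 23.2% as deposited and 9.8% and 49.4% centred. Of 13 genes for the import of carrier proteins, 10 fell and 1 rose in SS minus C, with a median log2 difference of -1.04 (11 fell and 0 rose with centred arrays). TIMM10, a chaperone that guides carriers through the space between the membranes, fell with -1.71 (limma adjusted p = 1.02e-11), and its relative TIMM13 fell with -1.47 (adjusted p = 3.84e-10). With ADMA, 3 of the 13 rose and 1 fell against SS, with a median of 0.16, and both TIMM10 (0.42) and TIMM13 (0.51) were among the rises, while with centred arrays TIMM10 was not called (0.31, adjusted p = 0.0151) and the split was 2 and 1. In ADMA minus C 11 fell and 1 rose.

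Of 19 enzymes that use the carried metabolites, 14 fell and 3 rose in SS minus C, with a median of -0.63 (16 fell and 1 rose with centred arrays). FECH, ferrochelatase, which inserts iron into heme, fell with -1.16 (limma adjusted p = 3.59e-09), and ALAS1, which makes the first intermediate of heme from glycine, rose with 1.15 (adjusted p = 1.01e-09). Both turned with ADMA, where FECH rose with 0.52 and ALAS1 fell with -0.40, calls that were kept with both other scalings. Of the 19, 10 rose and 2 fell in ADMA minus SS, with a median of 0.29, but 3 rose and 2 fell with centred arrays. In ADMA minus C 12 fell and 2 rose.

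Among 16 other mitochondrial transporters and channels, 8 fell and 6 rose in SS minus C, with a median of -0.25 (8 fell and 1 rose with centred arrays). SFXN2 and SFXN4, of the sideroflexin family, fell with -1.34 and -1.09 (limma adjusted p = 1.01e-06 and 5.17e-08). Against SS, 4 rose and 4 fell with ADMA, and in ADMA minus C 8 fell and 5 rose. With centred arrays the splits were 0 rises and 5 falls in ADMA minus SS and 2 rises and 11 falls in ADMA minus C.

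Among 10 regulators of mitochondrial gene expression, 6 fell and 2 rose in SS minus C, with a median of -0.51 (8 fell and 0 rose with centred arrays). PPARGC1B, a coactivator of mitochondrial biogenesis, fell with -1.35, and TFAM, the factor that packs and transcribes mitochondrial DNA, fell with -1.26. In ADMA minus SS they rose with 0.59 and 0.39, and neither was called with centred arrays (0.47 and 0.27). Of these 10 regulators 4 rose and 1 fell in ADMA minus SS (1 and 2 with centred arrays), and in ADMA minus C 4 fell and 1 rose.

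Carrier-fold proteins with other symbols gave 3 tested genes, of which MTCH2, an outer membrane insertase, fell in SS minus C (log2 difference -1.15, limma adjusted p = 9.41e-09) and rose in ADMA minus SS (0.35, adjusted p = 0.00192), a rise not called with centred arrays (0.23). UCP2 and MTCH1 were not called in these comparisons, and MTCH2 alone of the 3 fell in ADMA minus C (-0.81).

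Within the SLC25 genes, the 10 called in ADMA minus SS thus fell into several patterns, counted on the arrays as deposited. SLC25A10, SLC25A26 and SLC25A39 fell in SS minus C and rose in ADMA minus SS, and SLC25A36 and SLC25A45 rose and then fell. SLC25A16 rose in both, and SLC25A4 and SLC25A32 fell in both. SLC25A3 and SLC25A37 rose in ADMA minus SS with no call in SS minus C. Both comparisons rest on the same SS arrays, so these patterns are a description and not a test. All 3 calls in SS minus C, ADMA minus SS and ADMA minus C were kept in every alternative by SLC25A39 and SLC25A45. SLC25A39 has 1 probe set, 223649_s_at, so the alternatives that average or leave out probe sets used the same values for it.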

How the data were processed

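RNA of 10 LoVo cultures was hybridized to 1 array each. The authors computed 1 signal per probe set with MAS 5.0 and scaled each array, and the deposited intensity values are linear. No further normalization was applied here, and log2 was taken without a pseudocount. Of 54675 probe sets, 62 were array controls, 41091 had 1 symbol in the platform annotation, 1801 several and 11721 none. A gene was read from its single-symbol probe set with the highest mean log2 signal and tested if that mean reached the 50th percentile of all probe sets (signal 76.3), which left 12342 of 19775 genes. Group means were compared in R 4.3.3 by limma 3.58.1, whose lmFit and trended eBayes took the 10 arrays together, and p-values were adjusted by Benjamini-Hochberg over all genes tested, with a threshold of 0.01 and a fold of at least 1.2, the limits the study used in its own SAM analysis. Signals of different probe sets are not compared with each other. The fit was tested on simulated data.

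The members, role groups and lists were chosen with earlier results of these data known. Values on every array are given for the member of each role group with the largest called change and for that with the highest mean signal. Of each further list the 2 called genes with the largest difference in SS minus C are named. SLC25A4, SLC25A11, SLC25A29 and SLC25A37, given by their ranges, and the test of single probe sets were chosen after the values were seen. Alternatives were quantile normalization, centring on array medians, filters at the 30th percentile or none, no intensity trend, the arrays of 2 groups alone, all probe sets of a gene averaged, none ending in _x_at or _s_at, a pseudocount of 16, background as a floor, an adjusted p under 0.05 with no fold minimum, SAM, a block for the replicate number, and arrays left out 1 at a time. No 2 arrays were identical (highest correlation within a group 0.946). Promoter windows are from RefSeq (GRCh38.p14), and 1 window is not reported here or counted among the members. Plots were made in matplotlib 3.10.9 under Python 3.11.15.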

Additional observations from a re-analysis of the deposited data

Results flagged for a closer look

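SLC25A5, the ADP/ATP carrier of proliferating cells, had 1 ADMA array far from the other 3. ADMA replicate 4 had a log2 signal of 14.21, against 14.02 to 14.04 on the other ADMA arrays, so that the gap took up 0.918 of the range of the group, over Dixon's 95% critical value for 4 samples. It was the 1 such case among the 45 SLC25 genes in the ADMA group. Chance gives about 1 such case in 20 genes, so 1 among 45 is no more than chance gives.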

How the results depend on the processing

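Of the calls on the arrays as deposited, 11 of 19 in SS minus C, 2 of 10 in ADMA minus SS (SLC25A39 and SLC25A45) and 10 of 21 in ADMA minus C were kept under every alternative run. SAM, written out with the exact permutations, called 12 SLC25 genes in SS minus C (5 rose, 7 fell), 4 in ADMA minus SS and 13 in ADMA minus C. An adjusted p under 0.05 with no fold minimum, which can add calls but lose none, gave 16 in ADMA minus SS. For the 18 SLC25 genes with 1 probe set, averaging probe sets or leaving out those ending in _x_at or _s_at used the same values. With each array left out in turn, 19 to 21 were called in SS minus C, 7 to 11 in ADMA minus SS and 19 to 23 in ADMA minus C. The cause of these shifts was not tested.

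With the replicate number as a replicate block, which drops ADMA replicate 4, 19 were called in SS minus C, 6 in ADMA minus SS and 23 in ADMA minus C. Deviations of same-numbered arrays correlated between -0.074 and 0.10. Arrays of different numbers were not correlated beside them, so whether the numbers pair the arrays was not tested.

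Among values called on the arrays as deposited or under the alternative, direction turned in 11 cases, none of them with an array left out. Values called under neither were not counted. Centred arrays gave SLC25A38 -0.38 and SLC25A46 -0.33 in SS minus C, and SLC25A1 -0.12, SLC25A3 -0.10, SLC25A14 -0.50, SLC25A20 -0.13, SLC25A29 -0.054 and SLC25A46 -0.44 in ADMA minus C, by construction lower by the shift of the medians. Averaging all probe sets of a gene gave SLC25A4 0.14 in SS minus C, and SLC25A15 0.35 and SLC25A28 -1.01 in ADMA minus SS. The SLC25A28 average takes in 1560705_at, which was too dim to be tested. That probe set was over background on 0 of 4 ADMA and 1 of 3 SS arrays. The tested probe sets of SLC25A28 had 0.025 and -0.11 in ADMA minus SS and were not called. The number of arrays limits the precision.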
